A study of Mus musculus with 27 samples.

Results

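Collagens and laminins are the scaffold proteins of the extracellular matrix. The genes described here are 60 of the 24418 entries of the expression table, chosen by symbol: 44 collagen chain genes, 11 laminin chain genes, and Sparc, Fn1, Nid1, Nid2 and Hspg2. They were measured by bulk RNA sequencing in HSPCs, the haematopoietic stem and progenitor cells that give rise to all blood lineages, purified from C57BL/6 mice. There were 27 libraries, 3 in each of 9 groups. The labels name them E12.5 PL, E12.5 FL and E16.5 FL, where E counts embryonic days, then Perinatal BM, and last 1w, 3w, 4w, 6w and 8w BM, where w counts weeks. FL commonly stands for fetal liver and BM for bone marrow; the labels leave PL unexplained. All groups share the strain and the HSPC label, and no treatment or mutation is labelled. The sources used here do not give the purification markers, the sex of the animals or how many animals made up a library.

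Collagen chains fold into triple helices in the endoplasmic reticulum, are secreted, and assemble into fibrils (types I, III and V), into the sheet-like network of basement membranes (type IV), or on the surface of other fibres. Laminins are trimers of an alpha, a beta and a gamma chain, and form the other network of the basement membrane. Nidogens (Nid1, Nid2) and perlecan (Hspg2) tie the laminin and type IV networks together, fibronectin (Fn1) is bound by integrins, and Sparc binds collagens. Endothelial cells, stromal fibroblasts and, in the rodent conceptus, yolk sac endoderm are known for making these proteins in quantity, and blood progenitors are known mainly for binding them through integrins.

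Col4a1 and Col4a2 encode the chains of the widespread form of type IV collagen and are read in opposite directions from one stretch of chromosome 8. Their promoter windows are shown because this pair carries much of the signal described below. Lamb1 is shown as a laminin gene near the floor outside E12.5 PL, Col1a2 as a fibrillar collagen gene that was also detected in BM, and Col3a1 as a fibrillar gene with a different base composition. Each window runs from 250 bases before to 50 bases after the start (RefSeq, GRCm38.p6), 5′ to 3′ on the gene's own strand. Capitals mark the GC box GGGCGG, the TATA box TATAAA and the CCAAT box CCAAT on either strand, so that their reverse complements are marked too. No base belongs to more than one motif.
Col4a1: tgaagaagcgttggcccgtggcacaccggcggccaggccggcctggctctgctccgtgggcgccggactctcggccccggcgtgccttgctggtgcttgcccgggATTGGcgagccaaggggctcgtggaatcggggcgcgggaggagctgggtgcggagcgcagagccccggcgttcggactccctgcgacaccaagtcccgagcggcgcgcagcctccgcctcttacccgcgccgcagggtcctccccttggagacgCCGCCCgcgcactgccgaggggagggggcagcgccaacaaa
Col4a2: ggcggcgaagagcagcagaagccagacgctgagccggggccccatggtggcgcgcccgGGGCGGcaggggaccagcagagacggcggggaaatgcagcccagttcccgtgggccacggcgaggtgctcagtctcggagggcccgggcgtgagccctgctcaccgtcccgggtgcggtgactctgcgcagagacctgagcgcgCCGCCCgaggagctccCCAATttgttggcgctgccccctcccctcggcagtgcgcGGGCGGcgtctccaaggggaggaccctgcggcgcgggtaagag
Lamb1: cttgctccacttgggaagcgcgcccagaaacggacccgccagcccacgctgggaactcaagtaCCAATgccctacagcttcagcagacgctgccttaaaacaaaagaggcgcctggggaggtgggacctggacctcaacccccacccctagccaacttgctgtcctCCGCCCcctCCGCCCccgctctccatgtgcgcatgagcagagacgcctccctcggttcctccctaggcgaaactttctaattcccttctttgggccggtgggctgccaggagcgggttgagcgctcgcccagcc
Col1a2: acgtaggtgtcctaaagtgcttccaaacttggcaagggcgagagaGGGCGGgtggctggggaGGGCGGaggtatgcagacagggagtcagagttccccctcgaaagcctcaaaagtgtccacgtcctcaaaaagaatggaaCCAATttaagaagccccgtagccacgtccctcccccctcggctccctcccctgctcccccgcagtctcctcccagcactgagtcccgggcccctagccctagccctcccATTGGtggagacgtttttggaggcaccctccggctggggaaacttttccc
Col3a1: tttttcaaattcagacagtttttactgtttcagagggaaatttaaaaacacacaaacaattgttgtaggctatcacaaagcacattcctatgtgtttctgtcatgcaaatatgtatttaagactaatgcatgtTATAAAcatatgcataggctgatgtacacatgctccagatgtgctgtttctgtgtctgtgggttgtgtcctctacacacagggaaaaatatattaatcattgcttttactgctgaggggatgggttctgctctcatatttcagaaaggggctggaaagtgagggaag

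The windows lie at chr8:11312777-11313076 on the minus strand (Col4a1), chr8:11312555-11312854 on the plus strand (Col4a2), chr12:31265043-31265342 on the plus strand (Lamb1), chr6:4505368-4505667 on the plus strand (Col1a2) and chr1:45311288-45311587 on the plus strand (Col3a1). The Col4a1 and Col4a2 windows share 78 bases, chr8:11312777-11312854, and the starts used for these windows are 21 bases apart. In Col4a1 and Lamb1 the start used lies inside the gene span, which begins at chr8:11312889 (minus strand) and chr12:31265146 (plus strand). Of the bases in the window, 74% are G or C in Col4a1, 73.7% in Col4a2, 63.7% in Lamb1, 61% in Col1a2 and 37.7% in Col3a1. Member windows on chromosome 18, where Lama3 lies, were left out, a limit not set for the windows of all genes. Windows elsewhere were found for 43 of the 60 genes (47 windows). The GC box stood in 59.6% of these windows and in 35.7% of all 32851 windows of the same length. The TATA box stood in 10.6% and 13.6%, and the CCAAT box in 31.9% and 37.4%. These matches describe the letters of the windows only.

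Expression was given as FPKM (fragments per kilobase of transcript, scaled to the library's total), a scale per length on which levels of different genes can be set side by side. The total count of a library is unknown; steps between the lowest values gave relative depths of 0.678 to 1.65, with the median library at 1. FPKM summed to 519810 to 763033 in a library. The E12.5 PL libraries stand apart from the other 24. The haematopoietic markers (12 genes, among them Ptprc, Spi1 and Myb) summed to 460, 344 and 324 FPKM in E12.5 PL1, PL2 and PL3. In E12.5 FL they summed to between 1140 and 1180 FPKM. In the limma test described below 11 of the 12 were lower (background 33.2% of genes tested) and 1, Gata2, was higher (background 41%). Gata2 averaged 73.8 FPKM in E12.5 PL and 44.4 FPKM in E12.5 FL. Ptprc, the pan-leukocyte phosphatase CD45, had 11.1, 6.06 and 6.56 FPKM in E12.5 PL, against 67.9, 63.5 and 64.4 FPKM in E12.5 FL. Differences below were taken between means of log2(FPKM + 1), and this scale makes the change of a low gene look smaller than it is. They were tested with limma over the 13350 genes with at least 1 FPKM in at least 3 libraries, with p-values adjusted by the Benjamini-Hochberg method. Nothing in the labels says that the 3 libraries of a group came from separate animals, so the p-values measure the spread between these libraries. In bulk samples, fewer cells of a type and less RNA per cell cannot be told apart.

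Collagen and laminin genes had their highest group mean in E12.5 PL for 48 of the 60 members, and most were near 0 elsewhere. The share of all entries with their highest mean there was not computed. Their FPKM summed to 8730, 19780 and 15690 in E12.5 PL1, PL2 and PL3, which was 1.34%, 2.93% and 2.06% of all FPKM in the library. In E12.5 FL they summed to 70.3, 63.1 and 71.1 FPKM, between 0.0107% and 0.013% of the library. Across the 24 libraries other than E12.5 PL the sum lay between 22.9 and 75.1 FPKM. In E12.5 PL 13 members averaged at least 100 FPKM, as did 1072 of all 24418 entries, and 24 members averaged at least 10 FPKM. By contrast, 45 members stayed under 1 FPKM in each of the 24 other libraries, and 21 did so in all 27. Sparc, Col4a1 and Col4a2 ranked 7, 8 and 43 among all entries in E12.5 PL and together made up 67.4% of the members' sum.

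**Figure D1:**
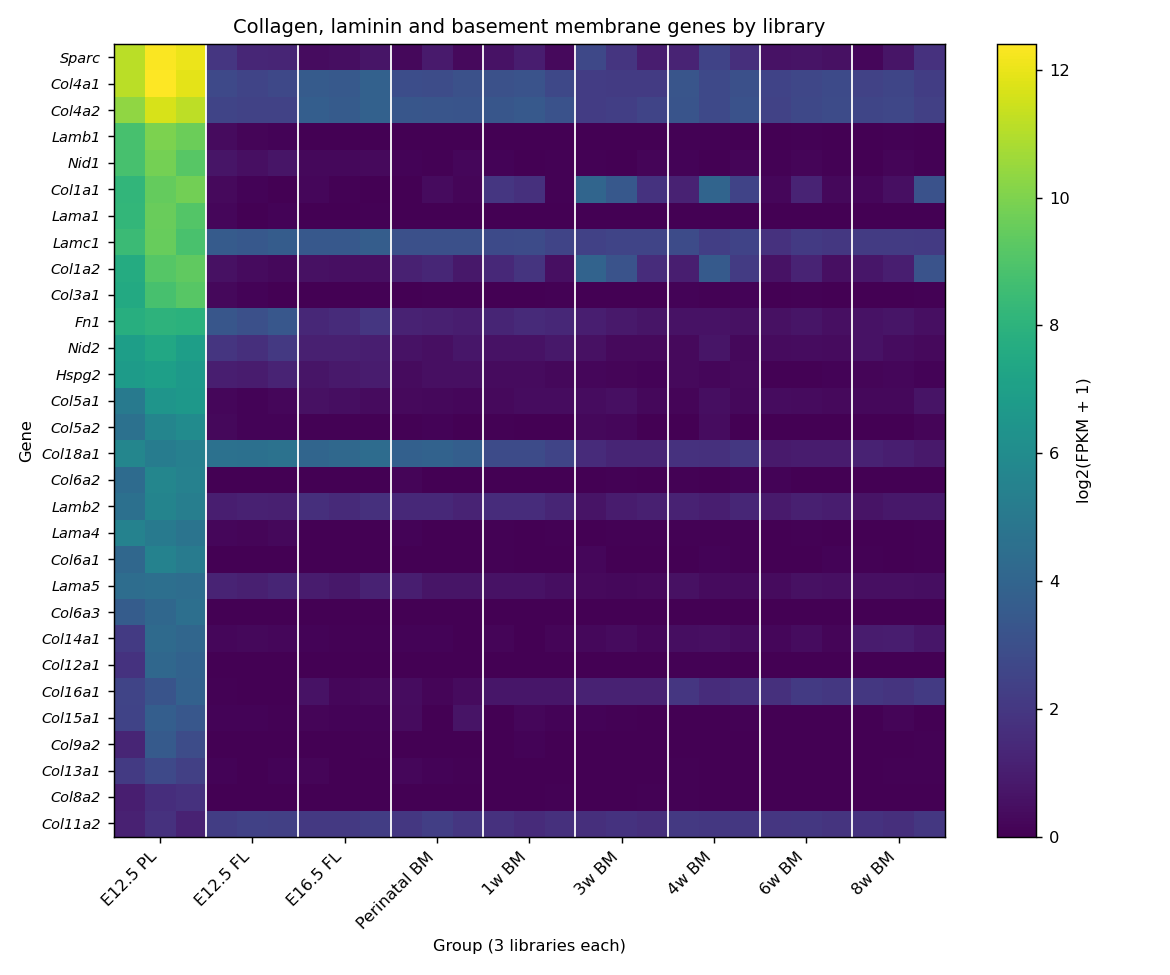
Level of 30 of the 31 tested members (rows, ordered by mean FPKM in E12.5 PL) in each of the 27 libraries (columns, 3 per group between white lines), coloured by log2(FPKM + 1). The E12.5 PL columns are bright for most rows, and Col18a1, Col4a1, Col4a2, Lamc1 and Col11a2 are visible in all groups.

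Every library of E12.5 PL lay above every library of E12.5 FL for 48 of the 60 members (80%), where the same held for 29.6% of all entries. Every E12.5 PL library lay below every E12.5 FL library for 1 member, Col11a2 (20.1% of all entries). Every E12.5 PL library exceeded all 24 other libraries for 41 members (68.3%), against 20.1% of all entries. Only 31 members passed the filter on low values, and 18 of these passed only through E12.5 PL, so that they had to differ. These include Lama1, Lama4, Lamb1, Nid1, Hspg2, Col3a1, Col5a1, Col5a2, the type VI chains, Col8a2, Col9a2 and Col12a1 to Col15a1, whose differences are given without a p. In the limma test 30 of the 31 were higher in E12.5 PL (background 41% of genes tested) and 1 was lower (background 33.2%). The median difference was 4.94 on the log2 scale over the 31 members and 0.06 over all genes tested. Both the count of 30 and this median include the 18 members that passed only through E12.5 PL, so neither tests the members as a set. Of the 13 members that passed the filter over the 24 other libraries alone, 12 were higher in E12.5 PL, where 35.1% of such entries were.

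Type IV collagen led the basement membrane genes. Col4a1 (chr8:11198423-11312889, minus strand) had 2251, 5414 and 3825 FPKM in E12.5 PL1, PL2 and PL3, against 5.74, 4.91 and 5.49 FPKM in E12.5 FL. The difference was 9.14 ± 0.205 on the log2 scale (SE, adjusted p = 2.79e-21, limma). Col4a2 (chr8:11312805-11449287, plus strand) had 1298, 3177 and 2275 FPKM in E12.5 PL, against 4.75, 4.45 and 4.45 FPKM in E12.5 FL, a difference of 8.57 ± 0.204 (adjusted p = 8.09e-21, limma). Both chains were higher in each E12.5 PL library than in any other library of the study. The chains of the tissue-restricted type IV networks were low throughout. Col4a5 averaged 2.4 ± 1.32 and Col4a6 1.03 ± 0.767 FPKM in E12.5 PL (SD, n = 3), and Col4a3 and Col4a4 averaged 0.0164 and 0 FPKM there and reached at most 0.0556 and 0.0586 FPKM in the 24 other libraries. The exons of Col4a1 and Col4a2 overlap by 22 bases on opposite strands, and the sources used here do not say whether reads were counted by strand.

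The highest laminin genes of E12.5 PL were Lama1, Lamb1 and Lamc1, whose products form the laminin of early embryonic basement membranes. Lama1, its alpha chain, had 292, 750 and 533 FPKM in E12.5 PL, against 0.181, 0.0251 and 0.0734 FPKM in E12.5 FL (difference 8.81 ± 0.181, SE). Lamb1, its beta chain, had 450, 1004 and 781 FPKM in E12.5 PL, against 0.281, 0.137 and 0.0783 FPKM in E12.5 FL (difference 9.25 ± 0.161, SE). Lamc1, its gamma chain, had 350, 738 and 454 FPKM in E12.5 PL, against 10.7, 9.49 and 11.2 FPKM in E12.5 FL (difference 5.42 ± 0.176, adjusted p = 3.61e-18, limma). Lamc1 was therefore the only chain of the trimer above 1 FPKM in any library outside E12.5 PL, where its lowest value was 2.43 FPKM. Within E12.5 PL the Lama1/Lamb1 ratio was 0.693 ± 0.0497, Lama1/Lamc1 was 1.01 ± 0.169 and Lamb1/Lamc1 was 1.46 ± 0.232 (SD, n = 3).

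The other laminin chains followed at lower levels. Lamb2, a beta chain of neuromuscular and vascular basement membranes, averaged 36.1 ± 12.4 FPKM in E12.5 PL and 1.11 ± 0.0546 FPKM in E12.5 FL (SD, n = 3 each; adjusted p = 5.88e-16, limma). Lama4, the alpha chain of vascular laminin, averaged 34.3 ± 9.09 and 0.152 ± 0.0369 FPKM in the same groups, and Lama5, another vascular and epithelial alpha chain, 21.1 ± 0.934 and 1.29 ± 0.162 FPKM (adjusted p = 3.66e-18, limma). Lama3 and Lamb3, chains of epithelial laminin, were under 1 FPKM in all 27 libraries.

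The linkers of the basement membrane were high in the same libraries. Nid1 had 438, 885 and 572 FPKM in E12.5 PL, against 0.608, 0.441 and 0.636 FPKM in E12.5 FL (difference 8.60 ± 0.147, SE). Its FPKM stood at 1.24 ± 0.0329 times that of Lamc1, the laminin chain that nidogens bind (SD, n = 3). Nid2 had 121, 172 and 122 FPKM in E12.5 PL, against 2.71, 2.20 and 3.16 FPKM in E12.5 FL (difference 5.23 ± 0.138, adjusted p = 6.5e-20, limma); 437 of its annotated exon bases overlap the antisense gene Rtraf. Hspg2, perlecan, averaged 114 ± 12.6 FPKM in E12.5 PL and 1.12 ± 0.231 FPKM in E12.5 FL (SD, n = 3 each). Nid1 and Hspg2 were near or under 1 FPKM in all other libraries, with highest values of 0.636 and 1.38 FPKM.

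Sparc, a collagen-binding glycoprotein of basement membranes and bone, was the highest member in E12.5 PL on average. It had 2253, 5070 and 4207 FPKM in E12.5 PL, against 2.89, 1.5 and 1.4 FPKM in E12.5 FL (difference 10.31 ± 0.394, adjusted p = 8.08e-17, limma). Fn1, fibronectin, had 216, 256 and 241 FPKM in E12.5 PL, against 8.86, 7.25 and 9.27 FPKM in E12.5 FL (difference 4.66 ± 0.13, adjusted p = 1.87e-19, limma). The groups did not overlap for either gene, and Fn1 varied less among the E12.5 PL libraries than Sparc did.

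Fibrillar collagens were high in E12.5 PL as well. Col1a1, a chain of type I collagen, had 287, 703 and 861 FPKM in E12.5 PL, against 0.248, 0.0846 and 0.0144 FPKM in E12.5 FL (difference 8.97 ± 0.701, adjusted p = 5.59e-11, limma). Its partner chain Col1a2 had 200, 552 and 654 FPKM in E12.5 PL, against 0.462, 0.274 and 0.218 FPKM in E12.5 FL (difference 8.31 ± 0.619, adjusted p = 2.35e-11, limma). Col3a1, type III collagen, had 186, 444 and 576 FPKM in E12.5 PL, against 0.216, 0.0839 and 0 FPKM in E12.5 FL (difference 8.37 ± 0.221, SE). All of these were lowest in E12.5 PL1 and highest in E12.5 PL3. Col5a1 and Col5a2, chains of the type V collagen that starts fibrils, averaged 72.8 ± 35.1 and 45.1 ± 19.5 FPKM in E12.5 PL (SD, n = 3), and at most 0.588 and 0.345 FPKM in any of the 24 other libraries. Col2a1, the main cartilage collagen, stayed under 1 FPKM in all 27 libraries.

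Microfibrillar and fibril-associated collagens were lower. Col6a1, Col6a2 and Col6a3, the chains of type VI collagen, averaged 32 ± 14.1, 37.8 ± 16.7 and 16.6 ± 5.57 FPKM in E12.5 PL and were listed at 0 in 3, 2 and 2 of the E12.5 FL libraries. The fibril-associated collagens Col12a1, Col14a1, Col16a1 and Col9a2 averaged 11 ± 7.44, 12.8 ± 8.33, 8.77 ± 4.32 and 6.05 ± 4.53 FPKM in E12.5 PL (SD, n = 3 each). Col15a1, which like Col18a1 carries an endostatin-type domain, averaged 8.66 ± 3.63 FPKM in E12.5 PL. The transmembrane collagen Col13a1 and the network-forming Col8a2 averaged 4.34 ± 1.22 and 1.86 ± 0.726 FPKM.

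Col18a1 and Col11a2 departed from this pattern. Col18a1, the basement membrane collagen whose end fragment is endostatin, had 50.5, 36.3 and 40.9 FPKM in E12.5 PL, against 23.3, 22.6 and 24.8 FPKM in E12.5 FL. The groups did not overlap, and the difference of 0.82 ± 0.123 (adjusted p = 2.76e-06, limma) was the smallest among the 30 members that were higher. Col11a2, a chain of type XI collagen, had 1.20, 2.36 and 1.25 FPKM in E12.5 PL, against 3.80, 4.35 and 4.09 FPKM in E12.5 FL, and fell by 0.99 ± 0.134 (adjusted p = 5.72e-07, limma). Col11a2 was between 1.89 and 4.35 FPKM in all 24 other libraries. Of the 12 members whose highest group was not E12.5 PL, only Col11a2 and Col23a1 reached 1 FPKM in any library.

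The E12.5 PL libraries differed among themselves in these genes. Of the 28 members with a mean of at least 5 FPKM in E12.5 PL, 19 (67.9%) were highest in PL2, where 33.1% of the 9430 entries at that level were. A group of 7 was highest in PL3: the fibrillar chains Col1a1, Col1a2, Col3a1, Col5a1 and Col5a2, with Col6a3 and Col16a1. Col18a1 and Lama4 were highest in PL1. The median ratio of PL2 to PL1 was 2.32 over the 28 members and 1 over the 9430 entries. Lama5, Fn1, Hspg2 and Col18a1 differed least, with highest-to-lowest ratios of 1.08, 1.18, 1.23 and 1.39, and Col9a2, Col12a1 and Col14a1 most, with 7.43, 6.57 and 5.75.

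**Figure D2:**
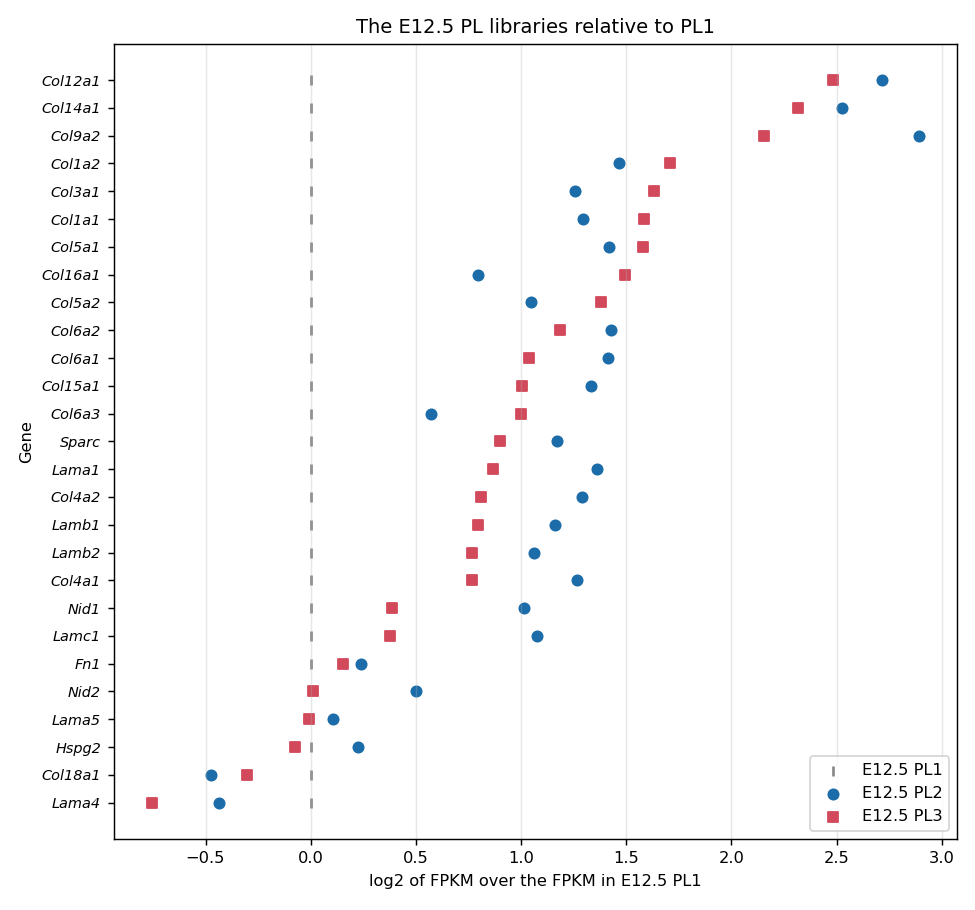
Level of 27 of the 28 members with a mean of at least 5 FPKM in E12.5 PL, as log2 of the FPKM in E12.5 PL2 (circles) and E12.5 PL3 (squares) over that in E12.5 PL1 (grey vertical ticks at 0), ordered by the PL3 value. Most circles and squares lie right of 0, and the squares lie right of the circles for the fibrillar chains Col1a1, Col1a2, Col3a1, Col5a1 and Col5a2.

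Markers of some other cell types were high in the same libraries, and those of others were not. The macrophage list summed to 16.3 to 17.7 FPKM in E12.5 PL, against 27.3 to 32.8 FPKM in E12.5 FL. In the same groups the mast list summed to 16.2 to 30.7 and 31.8 to 39.3 FPKM. The hepatocyte list summed to 18.6 to 20.9 and 22.5 to 34.5 FPKM, and the megakaryocyte list to 79.2 to 127 and 95.7 to 107 FPKM. The osteoblast list summed to 42.5 to 50.9 and 19.5 to 25.5 FPKM. The endoderm and yolk sac list (18 genes) summed to 481, 1150 and 1000 FPKM in E12.5 PL1, PL2 and PL3, against 17.2 to 24.3 FPKM in E12.5 FL. Of its 15 tested genes 12 were higher and 2 lower in E12.5 PL, and 2 and 2 of the 4 that passed the filter without it. The lower genes were Afp, with means of 0.47 and 6.46 FPKM in E12.5 PL and E12.5 FL, and Hnf4a (difference -0.92). Gata4, an endoderm and heart transcription factor, had 52.6, 145 and 90.4 FPKM in E12.5 PL, against 0.0693, 0 and 0 FPKM in E12.5 FL. Gata4 passed the filter only through E12.5 PL. The stromal list (14 genes) summed to 168, 279 and 362 FPKM in E12.5 PL, against 6.95 to 8.18 FPKM in E12.5 FL. Of its 12 tested genes 10 were higher and 0 lower in E12.5 PL, and 2 and 0 of the 4 that passed the filter without it. The trophoblast list (21 genes) summed to 3560, 3430 and 4260 FPKM in E12.5 PL, against 19 to 20.7 FPKM in E12.5 FL, with 16 of 16 tested genes higher, of which 13 passed the filter only through E12.5 PL. So did 11 of the 15 tested endoderm genes, 8 of the 12 stromal genes and 2 of the 14 endothelial genes, and these counts are no test of the lists. The endothelial list (14 genes) summed to 1560, 1230 and 1190 FPKM in E12.5 PL, against 338 to 367 FPKM in E12.5 FL. Of its 14 genes 13 were higher and 1 lower, where 41% and 33.2% of all genes tested were. Of the defining markers, Foxa2 and Apoa4 (endoderm) were listed at 0 in all E12.5 FL libraries, as were Twist2 and Prrx1 (stroma) and 7 trophoblast genes, Hand1 and Elf5 among them, and in E12.5 PL only Synb (trophoblast) was. With 3 libraries no relation between marker and matrix levels can be tested, and the part of these cell types in the matrix values was not tested.

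The ratio of the type IV chains also differed between the groups. Col4a1/Col4a2 was 1.73, 1.70 and 1.68 in E12.5 PL, against 1.21, 1.10 and 1.24 in E12.5 FL. The groups did not overlap, but 3 against 3 libraries cannot give an exact permutation p below 0.1, the value obtained (two-sided). Over the 24 libraries other than E12.5 PL the ratio lay between 0.699 and 1.24. It averaged 0.942 ± 0.043 in E16.5 FL and 0.798 ± 0.0951 in Perinatal BM (SD, n = 3 each). The type I ratio Col1a1/Col1a2 was 1.34 ± 0.0827 in E12.5 PL (SD, n = 3).

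**Figure D3:**
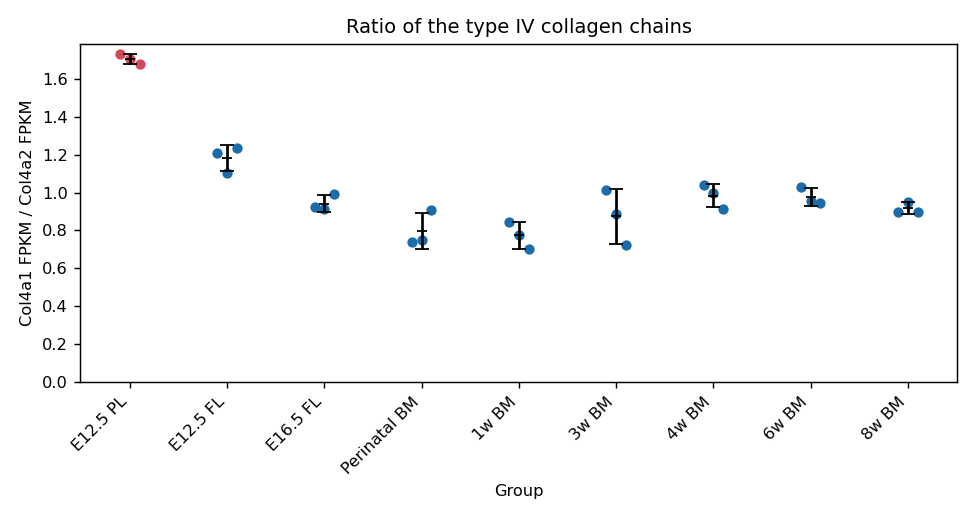
Ratio of Col4a1 FPKM to Col4a2 FPKM in each library (points), with the group mean and SD (bars, n = 3). The E12.5 PL points lie between 1.68 and 1.73, above the 24 other libraries, which lie between 0.699 and 1.24.

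The genes that make and modify collagen were high with it. Of 31 listed collagen-processing genes, 27 were tested, and 26 were higher and 0 lower in E12.5 PL than in E12.5 FL (background 41% and 33.2%). Of these lists, too, some genes passed the filter only through E12.5 PL and had to differ. Of the 19 collagen-processing genes that passed without it 18 were higher, against 35.1% of all such entries. Serpinh1, the collagen chaperone HSP47, had 1631, 3261 and 3114 FPKM in E12.5 PL, against 6.55, 5.01 and 4.87 FPKM in E12.5 FL (adjusted p = 4.27e-21, limma). P4ha2, a subunit of the prolyl hydroxylase of collagen chains, averaged 315 FPKM in E12.5 PL and 0.293 FPKM in E12.5 FL, and Fkbp10 and Pcolce, a collagen foldase and an enhancer of propeptide removal, 154 and 1.14 FPKM and 56 and 0.314 FPKM. Of the matrix proteases and inhibitors 13 of 13 tested genes were higher, and 8 of the 8 that passed without E12.5 PL. Mmp15, a membrane-bound metalloproteinase, averaged 34.4 FPKM in E12.5 PL and 0.187 FPKM in E12.5 FL, and Plat, the tissue plasminogen activator, 40 and 0.0341 FPKM. Among other matrix genes 29 of 29 tested were higher, but 18 of them passed only through E12.5 PL, among them Pxdn, the peroxidase that crosslinks type IV collagen (85.7 and 0.815 FPKM), and the proteoglycan Dcn (65.3 and 0.0138 FPKM).

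Some of the receptors for these proteins were present in all groups. Of 23 listed receptor genes 18 averaged at least 1 FPKM in E12.5 PL, and between 11 and 13 did in each FL and BM group. Of 19 tested receptor genes 15 were higher and 3 lower in E12.5 PL (background 41% and 33.2%). Of the 14 that passed without it 10 were higher and 3 lower. Itgb1, the common beta chain of the collagen and laminin integrins, had 244, 276 and 257 FPKM in E12.5 PL, against 86, 83.8 and 85.9 FPKM in E12.5 FL (difference 1.59, adjusted p = 4.41e-16, limma). Ddr1, a collagen receptor kinase, averaged 34.4 FPKM in E12.5 PL and 0.0128 FPKM in E12.5 FL. In the same groups Itga3, a laminin receptor chain, averaged 36.1 and 0.294 FPKM, and Itga1, a collagen receptor chain, 13.2 and 0.0949 FPKM. Ddr1 and Itga1 passed the filter only through E12.5 PL.

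Outside E12.5 PL the members were few and low. Only 13 had at least 1 FPKM in at least 3 of the 24 libraries. Averaged over these libraries, the highest were Col18a1 (8.22 FPKM), Col4a2 (6.96), Col4a1 (6.36), Lamc1 (6.19), Col11a2 (2.97), Col1a1 (2.71), Col1a2 (2.57), Fn1 (1.97), Col16a1 (1.35), Sparc (1.34), Lamb2 (1.30) and Nid2 (0.787), and the remaining one, Lama5, reached at most 1.41 FPKM. Lama1, Lamb1 and Col3a1, each over 100 FPKM in E12.5 PL, reached at most 0.181, 0.281 and 0.217 FPKM in them. An alpha chain, Lama5, was above 1 FPKM together with Lamb2 and Lamc1 in all E12.5 FL libraries, in E16.5 FL3 and in Perinatal BM1.

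Between E12.5 FL and E16.5 FL Fn1, Nid2 and Col18a1 fell, and Col4a1, Col4a2 and Lamb2 rose. In the test of E16.5 FL over E12.5 FL 6 of the 31 members were called (background 34.6% of genes tested), 3 higher (background 19%) and 3 lower (background 15.6%). Without the filter, the libraries did not overlap for 11 of 60 members higher (18.3%, against 17% of all entries) and 13 lower (21.7%, against 14.5%). Fn1 had 1.64, 1.88 and 2.96 FPKM in E16.5 FL, against 8.86, 7.25 and 9.27 FPKM in E12.5 FL, and fell by 1.60 ± 0.13 on the log2 scale (adjusted p = 8.93e-09, limma). Nid2 had 1.12, 1.10 and 1.08 FPKM in E16.5 FL, against 2.71, 2.20 and 3.16 FPKM in E12.5 FL, and fell by 0.81 ± 0.138 (adjusted p = 0.000124, limma). Both genes were lower in every E16.5 FL library than in any E12.5 FL library. Col18a1 had 15.4, 17.3 and 20.2 FPKM in E16.5 FL, against 23.3, 22.6 and 24.8 FPKM in E12.5 FL, and fell by 0.41 ± 0.123 (adjusted p = 0.0137, limma). Its adjusted p was 0.0545 without E12.5 FL3 and 0.0825 without E16.5 FL1. The count of members lower was 5 without E16.5 FL3. Sparc was not called in the main fit (difference -0.998 ± 0.394, adjusted p = 0.0534, limma). It was called with a pseudocount of 0.1, with a minimum of 5 FPKM, with only the compared groups and without E12.5 PL.

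The type IV chains were at their highest outside E12.5 PL in E16.5 FL. Col4a2 had 11.9, 10.8 and 13.5 FPKM in E16.5 FL, against 4.75, 4.45 and 4.45 FPKM in E12.5 FL, and rose by 1.23 ± 0.204 on the log2 scale (adjusted p = 8.33e-05, limma). Col4a1 had 10.9, 9.87 and 13.4 FPKM in E16.5 FL, against 5.74, 4.91 and 5.49 FPKM in E12.5 FL, and rose by 0.95 ± 0.205 (adjusted p = 0.00113, limma). Neither group overlapped the other for these chains. Lamb2 had 2.18, 1.80 and 2.28 FPKM in E16.5 FL, against 1.06, 1.17 and 1.11 FPKM in E12.5 FL (difference 0.54 ± 0.173, adjusted p = 0.0179, limma), with an adjusted p of 0.0506 without E12.5 FL1, 0.0543 without E16.5 FL1 and 0.0625 without E16.5 FL3. Lamc1 averaged 10.3 ± 1.09 FPKM in E16.5 FL and 10.4 ± 0.86 FPKM in E12.5 FL (SD, n = 3 each; adjusted p = 0.953, limma). The endothelial list summed to 309 to 347 FPKM in E16.5 FL and 338 to 367 FPKM in E12.5 FL. The macrophage list (10 genes) summed to 44 to 51.1 and 27.3 to 32.8 FPKM in these groups. Of 14 tested endothelial genes 3 were higher and 5 lower. Of 7 tested macrophage genes 4 were higher and 0 lower (background 19% and 15.6% for either list). The part of either cell type in these values was not tested.

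Of the related genes, 2 of 27 collagen-processing genes were higher and 2 lower in E16.5 FL, and 3 of 19 receptors were higher and 4 lower. Among all genes tested 19% were higher and 15.6% lower. Bcam, a laminin receptor, averaged 9.6 FPKM in E16.5 FL and 2.29 FPKM in E12.5 FL (adjusted p = 3.34e-06, limma). The laminin receptor chain Itga6 averaged 18.7 and 24.8 FPKM (adjusted p = 0.0262), and the fibronectin receptor chain Itga5 8.1 and 10.8 FPKM (adjusted p = 0.0178). Of the proteases and inhibitors 0 of 13 were higher and 1 lower, and of the other matrix genes 1 of 29 was higher and 3 lower. Emilin1, a glycoprotein of elastic fibres, averaged 26.3 FPKM in E16.5 FL and 42.2 FPKM in E12.5 FL (adjusted p = 1.54e-06, limma).

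Between E16.5 FL and Perinatal BM, Fn1, Hspg2, Col18a1, Col4a1 and Nid2 fell, a count near the background. In the test of Perinatal BM over E16.5 FL 0 of 31 members were higher (background 14.2%) and 5 lower (background 14.2%), and at an unadjusted p under 0.05 the counts were 0 and 7. Without the filter on low values 2 members, Col23a1 and Col4a4, were called higher by limma, and without overlap between libraries 3 of 60 members were higher (5%, against 11.8% of all entries) and 12 lower (20%, against 11.3%). Fn1 had 1.28, 1.13 and 0.959 FPKM in Perinatal BM, against 1.64, 1.88 and 2.96 FPKM in E16.5 FL, and fell by 0.55 ± 0.13 (adjusted p = 0.00271, limma). Col18a1 had 12.8, 13.7 and 11.9 FPKM in Perinatal BM, against 15.4, 17.3 and 20.2 FPKM in E16.5 FL, and fell by 0.43 ± 0.123 (adjusted p = 0.0112, limma). Every Perinatal BM library was below every E16.5 FL library for both genes.

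Col4a1 had 6.67, 6.45 and 7.48 FPKM in Perinatal BM, against 10.9, 9.87 and 13.4 FPKM in E16.5 FL, and fell by 0.65 ± 0.205 (adjusted p = 0.0205, limma). Nid2 had 0.535, 0.445 and 0.689 FPKM in Perinatal BM, against 1.12, 1.10 and 1.08 FPKM in E16.5 FL, and fell by 0.43 ± 0.138 (adjusted p = 0.0216, limma). Hspg2 averaged 0.39 ± 0.0887 FPKM in Perinatal BM and 0.797 ± 0.167 FPKM in E16.5 FL (SD, n = 3 each; adjusted p = 0.00528, limma). The count of 5 was 3 without E16.5 FL3, Perinatal BM1 or Perinatal BM2. Leaving out 1 library raised the adjusted p to at most 0.0959 for Col4a1 (lost without E16.5 FL3, Perinatal BM1 or Perinatal BM2), 0.0809 for Nid2 (lost without E16.5 FL1, E16.5 FL2, Perinatal BM1 or Perinatal BM2) and 0.0753 for Col18a1 (lost without E16.5 FL3). With only the compared groups in the fit, the adjusted p was 0.07 for Fn1 and 0.0922 for Nid2, and Hspg2 did not pass the filter, nor did it without E12.5 PL.

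Mast cell genes marked the Perinatal BM libraries: the mast list (9 genes) summed to 3200, 1490 and 4050 FPKM in Perinatal BM, against 59.5, 24.2 and 11.6 FPKM in E16.5 FL, with 9 of 9 genes higher. The endothelial list summed to 264 to 301 FPKM in Perinatal BM and 309 to 347 FPKM in E16.5 FL, with 0 of 14 genes higher and 7 lower, and 4 of 7 tested macrophage genes were lower. Their part in the matrix values was not tested. Col23a1, a transmembrane collagen, was highest in Perinatal BM, with 1.15, 1.48 and 0.944 FPKM, and at most 0.614 FPKM in the other libraries of FL and BM. Of the related genes 4 of 27 collagen-processing genes were higher and 2 lower, and 7 of 19 receptors were higher and 2 lower. Of the proteases and inhibitors 3 of 13 were higher and 1 lower, and of the other matrix genes 4 of 29 were higher and 2 lower. Among all genes tested 14.2% were higher and 14.2% lower in Perinatal BM. Serpinh1 averaged 2.22 FPKM in Perinatal BM and 5.26 FPKM in E16.5 FL (adjusted p = 0.000983, limma), and Itgb3, the beta chain of the vitronectin receptor, 8.58 and 1.52 FPKM (adjusted p = 1.83e-08). Of the other matrix genes Ecm1 averaged 15.4 and 5.35 FPKM (adjusted p = 7.64e-06, limma), and Postn, periostin, 2.28 and 6.06 FPKM (adjusted p = 0.00268).

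Between Perinatal BM and 8w BM most of the members that changed fell, and Col16a1 rose. In the test of 8w BM over Perinatal BM 2 of 31 members were higher (background 19.2%) and 8 lower (background 18.6%). Without the filter the libraries did not overlap for 5 of 60 members higher (8.33%, against 13.4% of all entries) and 14 lower (23.3%, against 14.2%). Col18a1 had 1.29, 1.08 and 0.829 FPKM in 8w BM, against 12.8, 13.7 and 11.9 FPKM in Perinatal BM, and fell by 2.74 ± 0.123 (adjusted p = 1.54e-13, limma). Lamc1 had 3.53, 3.47 and 3.29 FPKM in 8w BM, against 7.27, 7.04 and 7.24 FPKM in Perinatal BM, and fell by 0.89 ± 0.176 (adjusted p = 0.00041, limma). No library of one group reached the range of the other for either gene.

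Col4a2, Col4a1, Lamb2, Fn1, Lama5 and Hspg2 also fell, while Nid1 and Nid2 were not called. Col4a2 had 5.04, 5.28 and 4.16 FPKM in 8w BM, against 9.04, 8.61 and 8.24 FPKM in Perinatal BM (difference -0.73 ± 0.204, adjusted p = 0.00696, limma). Col4a1 had 4.52, 5.03 and 3.74 FPKM in 8w BM, against 6.67, 6.45 and 7.48 FPKM in Perinatal BM (difference -0.54 ± 0.205, adjusted p = 0.0419, limma). The Col4a1 call was lost with no filter (adjusted p = 0.0655), with the replicate number as a block (adjusted p = 0.051), and without any of Perinatal BM1, BM2, BM3, 8w BM1 or 8w BM3 (adjusted p up to 0.148). Lamb2 had 0.553, 0.765 and 0.713 FPKM in 8w BM, against 1.72, 1.69 and 1.34 FPKM in Perinatal BM (adjusted p = 0.00665, limma). Fn1 had 0.541, 0.627 and 0.418 FPKM in 8w BM, against 1.28, 1.13 and 0.959 FPKM in Perinatal BM (adjusted p = 0.00613, limma). Lama5 averaged 0.403 ± 0.0112 and 0.777 ± 0.275 FPKM in these groups (adjusted p = 0.0178, and 0.145 without Perinatal BM1), and Hspg2 0.112 ± 0.0369 and 0.39 ± 0.0887 FPKM (adjusted p = 0.0101; SD, n = 3 each). With only the compared groups in the fit Fn1, Hspg2 and Lama5 did not pass the filter and their calls were lost, as was that of Hspg2 without E12.5 PL, through which alone it passed.

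Col16a1, a fibril-associated collagen, ran the other way. It had 2.96, 2.61 and 3.37 FPKM in 8w BM, against 0.319, 0.135 and 0.268 FPKM in Perinatal BM, and rose by 1.68 ± 0.2 (adjusted p = 8.54e-07, limma). Its group means were 0.039 ± 0.0175 FPKM in E12.5 FL, 0.318 ± 0.205 in E16.5 FL, 0.241 ± 0.0948 in Perinatal BM, 0.681 ± 0.0167 in 1w, 1.26 ± 0.0213 in 3w, 2.45 ± 0.503 in 4w, 2.85 ± 0.52 in 6w and 2.98 ± 0.381 in 8w BM (SD, n = 3 each). Neighbouring means among 4w, 6w and 8w BM did not differ beyond their spread. Col14a1, another fibril-associated collagen, had 0.935, 0.965 and 0.695 FPKM in 8w BM, against 0.072, 0.0967 and 0.03 FPKM in Perinatal BM (difference 0.80 ± 0.31, adjusted p = 0.0449, limma). Its call was lost without any 1 of the 6 libraries (adjusted p 0.0637 to 0.105) and with no filter (adjusted p = 0.0709), and it did not pass the filter with only the compared groups or without E12.5 PL.

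Over the 6 BM groups the moderated F test called 13 of 31 members (background 53.2%): Col18a1, Col16a1, Fn1, Lamc1, Col4a2, Col4a1, Lamb2, Col1a1, Lama5, Sparc, Hspg2, Col11a2 and Col1a2. With only BM groups in the fit Col1a2, Hspg2 and Lama5 were lost, and Hspg2 was also lost without E12.5 PL. Col11a2 was lost with a pseudocount of 0.1, with no filter and, like Col16a1, with a minimum of 5 FPKM. Col18a1 (adjusted p = 1.29e-13) averaged 23.6 ± 1.15 FPKM in E12.5 FL, 17.6 ± 2.39 in E16.5 FL, 12.8 ± 0.909 in Perinatal BM, 5.65 ± 0.702 in 1w, 1.57 ± 0.234 in 3w, 2.59 ± 0.377 in 4w, 0.893 ± 0.0462 in 6w and 1.07 ± 0.232 in 8w BM (SD, n = 3 each). Its level in 4w BM lay above that in 3w BM, and only 6w and 8w BM did not differ beyond their spread. Lamc1 (adjusted p = 0.000407) averaged 7.18 ± 0.123 in Perinatal BM, 5.6 ± 0.674 in 1w, 4.66 ± 0.295 in 3w, 4.93 ± 1.18 in 4w, 2.96 ± 0.479 in 6w and 3.43 ± 0.126 in 8w BM. Fn1 (adjusted p = 7.36e-05) averaged 1.12 ± 0.16, 1.63 ± 0.176, 0.842 ± 0.217, 0.511 ± 0.0209, 0.519 ± 0.124 and 0.529 ± 0.105 FPKM in the same order. Most of the decline of Col18a1 and Fn1 thus lay before 4w BM, and 4w, 6w and 8w BM were within the spread of each other for Fn1.

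The type IV chains dipped at 3 weeks. Col4a1 averaged 6.87 ± 0.544 FPKM in Perinatal BM, 6.95 ± 1.36 in 1w, 3.51 ± 0.0807 in 3w, 7.08 ± 1.46 in 4w, 5.25 ± 0.656 in 6w and 4.43 ± 0.65 in 8w BM (adjusted p = 0.00549 in the F test). Col4a2 averaged 8.63 ± 0.4, 8.94 ± 1.25, 4.09 ± 0.617, 7.2 ± 1.41, 5.41 ± 0.911 and 4.83 ± 0.587 FPKM in the same order (adjusted p = 0.00117). All 3 libraries of 3w BM were below all 3 of 4w BM for both chains, with Col4a1 at 3.43 to 3.59 FPKM in 3w BM and 5.57 to 8.49 FPKM in 4w BM. The step between 3w and 4w BM was not tested on its own. Lamb2 averaged 1.58 ± 0.211, 1.82 ± 0.33, 0.868 ± 0.27, 1.3 ± 0.247, 0.989 ± 0.115 and 0.677 ± 0.111 FPKM (adjusted p = 0.00588), with no neighbours in the order of levels differing beyond their spread. Col11a2 lay between 2.19 and 3.31 FPKM in all BM group means (adjusted p = 0.0434, and 0.0335 to 0.1 with 1 library left out; it was kept only without Perinatal BM3, 3w BM2, 6w BM3 or 8w BM3).

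**Figure D4:**
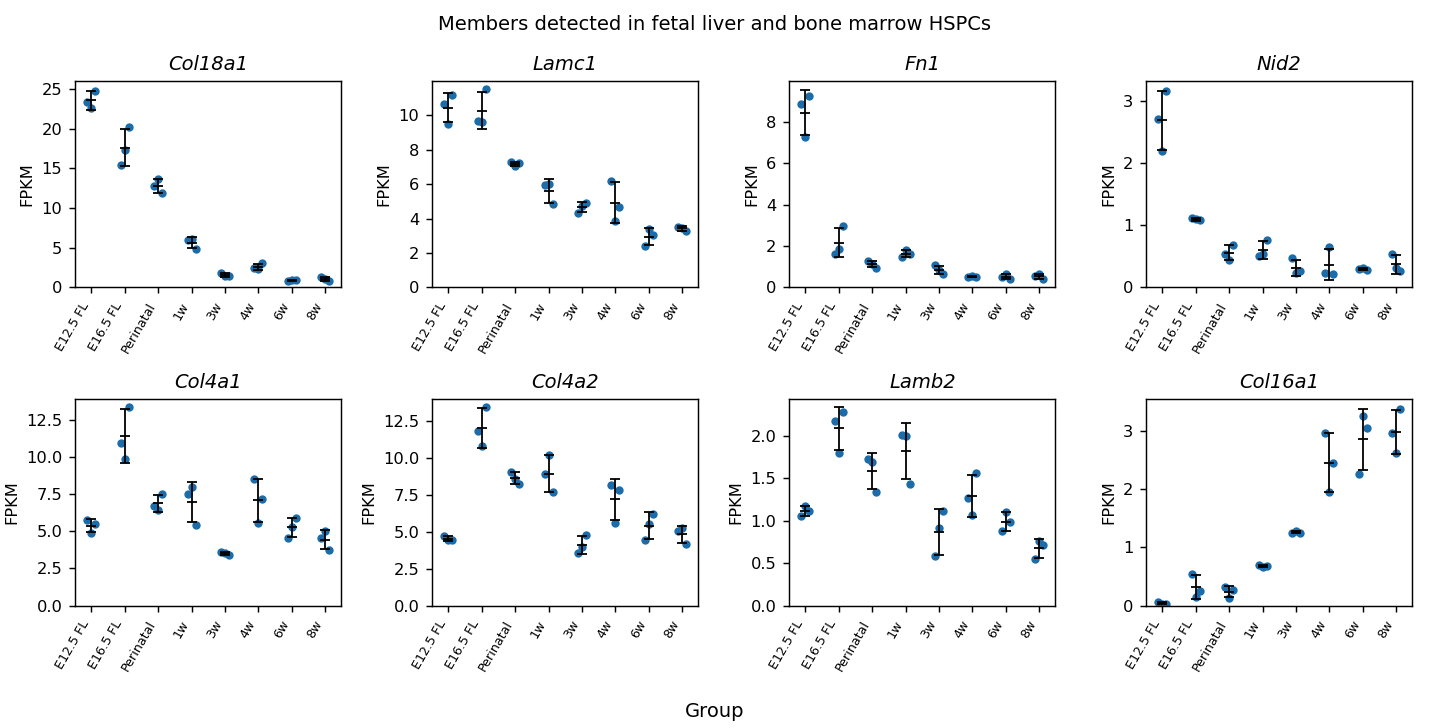
FPKM of 8 members in each library of the 2 FL and 6 BM groups, in order of age (points), with the group mean and SD (bars, n = 3); each panel has its own axis. Col18a1, Fn1 and Nid2 have their highest means in E12.5 FL, Col4a1, Col4a2 and Lamb2 in E16.5 FL, and Col16a1 in the oldest BM groups, and the Lamc1 points of E12.5 FL and E16.5 FL overlap.

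Cell type lists moved with age too. The mast list summed to 37.3 to 55.7 FPKM in 8w BM, against 1490 to 4050 FPKM in Perinatal BM, with 8 of 9 genes lower. The macrophage list summed to 94.5 to 149 FPKM in 8w BM, against 33.6 to 38.4 FPKM in Perinatal BM, with 6 of 7 tested genes higher, and the endothelial list to 197 to 223 FPKM, against 264 to 301 FPKM, with 2 of 14 genes higher and 5 lower. Their part in the matrix values was not tested. Of the related genes 3 of 27 collagen-processing genes were higher and 2 lower in 8w BM, and 3 of 19 receptors higher and 5 lower. Of the proteases and inhibitors 4 of 13 were higher and 3 lower, and of the other matrix genes 4 of 29 were higher and 6 lower. Among all genes tested 19.2% were higher and 18.6% lower in 8w BM. Bcam averaged 0.968 FPKM in 8w BM and 6.16 FPKM in Perinatal BM (adjusted p = 4.47e-07, limma), and Itga9, an integrin chain, 2.51 and 9.69 FPKM (adjusted p = 6.53e-10). Lair1, an inhibitory collagen receptor of blood cells, averaged 5.85 and 1.57 FPKM (adjusted p = 8.9e-09), and Vwf, von Willebrand factor, 8.27 and 2.23 FPKM (adjusted p = 7.42e-06). Ecm1, another matrix gene, averaged 3.46 and 15.4 FPKM (adjusted p = 4.07e-08, limma).

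Type I collagen and Sparc differed over the BM groups, with the highest means in 3w and 4w BM, and also varied widely between libraries of one group. Col1a1 had 15.6, 9.51 and 2.48 FPKM in 3w BM, 1.24, 15.1 and 4.65 FPKM in 4w BM, and 0.151, 0.427 and 7.85 FPKM in 8w BM. Col1a2 had 14.2, 7.94 and 1.98 FPKM in 3w BM, 1.02, 10.2 and 3.51 FPKM in 4w BM, and 0.687, 1.03 and 8.17 FPKM in 8w BM. Sparc had 5.35, 2.80 and 0.991 FPKM in 3w BM, 1.33, 4.60 and 2.20 FPKM in 4w BM, and 0.181, 0.616 and 2.37 FPKM in 8w BM. The 5 libraries 3w BM1, 3w BM2, 4w BM2, 4w BM3 and 8w BM3 were the highest for all of these genes. The F test called Col1a1 (adjusted p = 0.00791), Sparc (adjusted p = 0.00947) and Col1a2 (adjusted p = 0.048), and Col1a2 was near the threshold. The Col1a2 call was lost with the replicate block (adjusted p = 0.0522), with no filter (adjusted p = 0.0913) and with only BM groups in the fit (adjusted p = 0.0835). It was also lost without Perinatal BM1, BM2 or BM3, 1w BM1 or BM3, 3w BM1 or BM2, 4w BM3, or 6w BM1, BM2 or BM3, with adjusted p up to 0.174, the value without 3w BM1.

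Bglap, osteocalcin, was also high in most of these libraries, with 4.97, 2.42 and 1.76 FPKM in 3w BM, 1.88, 6.13 and 3.56 FPKM in 4w BM and 0, 0 and 0.35 FPKM in 8w BM. Its copy Bglap2 had 0.581, 1.52 and 0.372 FPKM in 3w BM, 0, 1.28 and 1.51 FPKM in 4w BM, and was listed at 0 in 8w BM; reads of the near-identical copies may be split between them. The osteoblast list (8 genes) summed to 43.2 to 51 FPKM in 3w BM, 53.2 to 60.7 FPKM in 4w BM and 33.3 to 34.4 FPKM in 8w BM, most of it Runx2, which lay between 32.2 and 58.6 FPKM in all BM libraries, and Dmp1, a defining osteocyte gene, was listed at 0 in 4w and 8w BM. The part of bone cells in the type I collagen values was not tested. Col3a1, the fibrillar partner of type I collagen in soft tissue, was at most 0.0779 FPKM in the BM libraries.

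**Figure D5:**
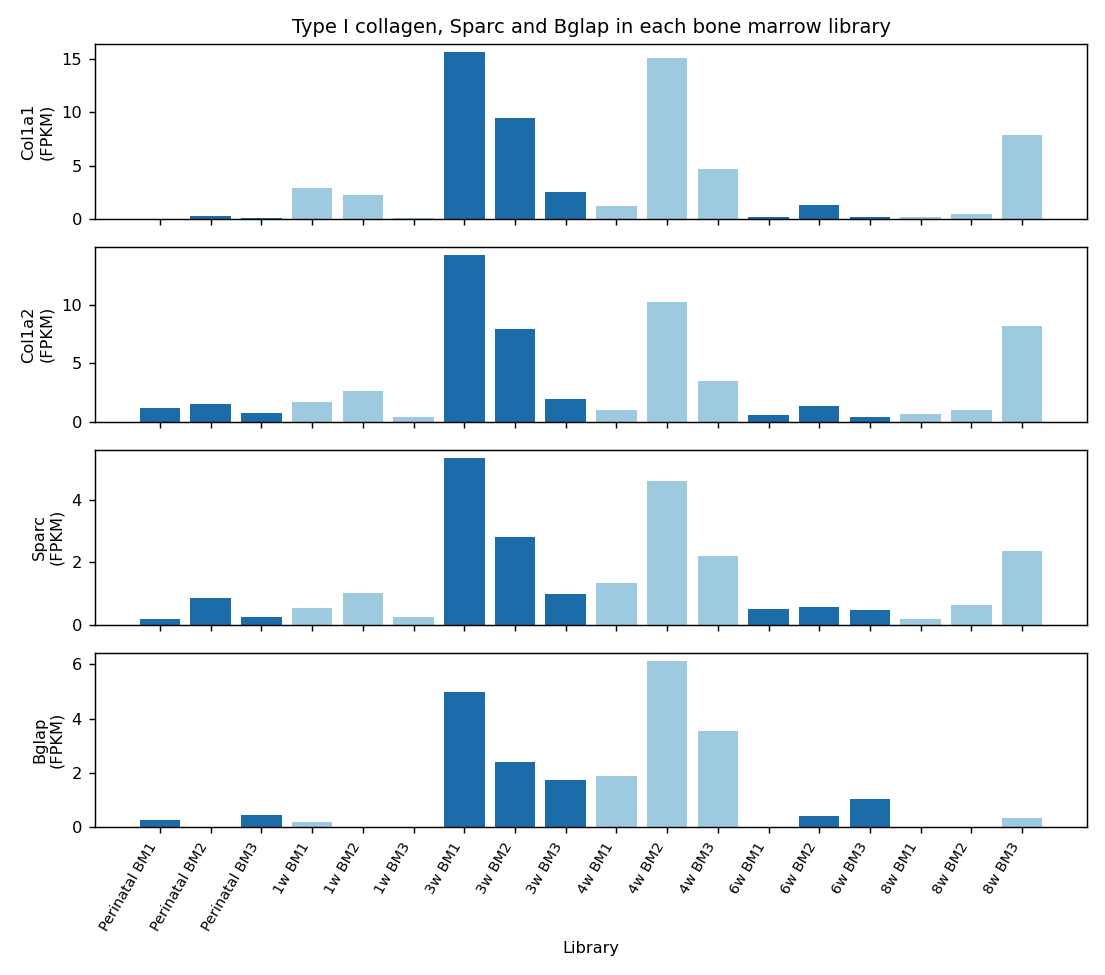
FPKM of Col1a1, Col1a2, Sparc and the osteoblast gene Bglap in each of the 18 BM libraries, in order of age (bars, 1 per library, with shades alternating by group). The tallest bars of Col1a1, Col1a2 and Sparc fall on 3w BM1, 3w BM2, 4w BM2 and 8w BM3, and Bglap is tallest in 4w BM2 and 3w BM1 and 0.35 FPKM in 8w BM3.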

How the data were processed

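RNA sequencing values of 27 libraries in 9 groups of 3 were used, grouped by their labels. The authors deposited FPKM values. Per the submitters' processing notes, Trim Galore, FastQC, STAR 2.7, HTSeq 0.6.1p1 and GRCm38 were used, and the tool that computed FPKM is not given in the sources used here. Since FPKM are not counts, limma 3.58.1 (R 4.3.3) was run on log2(FPKM + 1), with a mean for each group, 18 residual degrees of freedom, a variance trend and Benjamini-Hochberg adjustment over the 13350 genes that reached 1 FPKM in 3 or more libraries. The threshold was an adjusted p of 0.05. The fit was tested on simulated data. The fits were repeated with a pseudocount of 0.1, without the filter, with a minimum of 5 FPKM, with median-of-ratios scaling, with only the compared groups, with a replicate block, without E12.5 PL, and without each library in turn.

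Any member may be named, except 1 whose values are not reported here; it is counted in the totals and left out of the figures. Values in every library are for the 12 members highest in E12.5 PL, the 12 highest over the 24 other libraries, and up to 8 called in a comparison by adjusted p, with a few members added after their values were seen. Genes named from a related list are among its up to 4 with the smallest adjusted p and at least 5 FPKM in the higher group. Not all of these are named. Members, lists and these rules were chosen with earlier results of these data known. Replicate numbers were not used to pair libraries in the main fit. Correlations of residuals between libraries of different groups had a median of -0.0106 for same-numbered and -0.00285 for different-numbered libraries. Absolute depth is unknown, so counting intervals are not given. Figures and values used Python 3.11.15, pandas 2.3.3 and matplotlib 3.10.9.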

Additional observations from a re-analysis of the deposited data

How the results depend on the processing

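In E12.5 PL over E12.5 FL, 47 members were higher with no filter and 0 lower with a minimum of 5 FPKM, which Col11a2 did not pass. Leaving out each library gave 30 higher and 1 lower throughout. In E16.5 FL over E12.5 FL, 5 were higher and 7 lower with a pseudocount of 0.1, and 5 lower with a minimum of 5 FPKM. Leaving out each library gave 2 to 3 higher and 2 to 5 lower. In Perinatal BM over E16.5 FL, 2 were higher with no filter, and leaving out each library gave 0 higher and 3 to 5 lower. In 8w BM over Perinatal BM, 0 were higher with a minimum of 5 FPKM, 1 higher and 5 lower with only the compared groups, and 1 higher without E12.5 PL. Leaving out any library gave 1 higher and 6 to 8 lower. The F test over BM groups called 18 members with no filter, and 10 to 13 with a library left out, losing Hspg2 without Perinatal BM2 or BM3 and Lama5 without Perinatal BM1. No result reversed. Filters and fits on fewer groups test fewer genes; for the other changes the cause was not tested.

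With the replicate block the counts were 30 and 1, 3 and 3, 0 and 5, and 2 and 7 members higher and lower in the comparisons as listed, and 12 in the F test. Calls lost with it were Col4a1 in 8w BM over Perinatal BM and Col1a2 in the F test. Residuals of same-numbered libraries of different groups correlated between -0.205 and 0.227, and those of different-numbered libraries between -0.279 and 0.268. These ranges do not settle whether some libraries were handled together. Median-of-ratios scaling lost no call and added Hspg2 in E16.5 FL over E12.5 FL. Members under 1 FPKM are near the floor of these libraries, where the precision is unknown.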
